A study of Homo sapiens with 30 samples.

Results

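CDKN2A, CDKN2B and MTAP lie side by side on the short arm of chromosome 9, in band 9p21, and are known to be lost together from the genome of A549, a human lung adenocarcinoma cell line. They are described here with KLHL9 and MLLT3, which lie outside that deletion on the telomere side. The 5 genes were picked by symbol out of 61578 genes listed, because their levels set the 2 libraries named Mock apart from the other 28, so the levels that show this are given as a description with no test. All 5 were among the 19982 genes that passed the filter on low counts. CDKN2A, CDKN2B and MTAP passed it through the lines alone, since they had almost no reads in Mock.

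CDKN2A encodes p16INK4a and, from a start of its own and in another reading frame, p14ARF. p16INK4a and the CDKN2B product p15INK4b bind CDK4 and CDK6 and keep them from phosphorylating the retinoblastoma protein, which holds cells in G1, while p14ARF binds and inhibits the ubiquitin ligase MDM2. MTAP, methylthioadenosine phosphorylase, starts the pathway that returns methylthioadenosine, a by-product of polyamine synthesis, to methionine, and its loss is a passenger of CDKN2A deletion in many tumours.

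Poly(A) RNA was sequenced from 15 groups of 2 libraries, all labelled A549. The question was how gene expression changes when RPB1, the largest subunit of RNA polymerase II (gene POLR2A), is replaced by a form with a changed C-terminal domain, a tail of many copies of a short peptide whose tyrosine, serines and threonine are phosphorylated during transcription. Mock had the genotype WT and no treatment. Every other group carried endogenous RPB1 fused to a degron, a tag through which the compound dTAGV-1 directs a protein to degradation. The Degron line carried only that. The lines WT, Y1F, S2A, T4V, S5A and S7A also carried an RPB1 complement that doxycycline switches on, unchanged in WT and changed in the repeat residue that its name gives in the others. Each of these 7 lines was sampled untreated and treated. Treated Degron cells had 100 nM dTAGV-1 for 12 h, and treated cells of the other 6 lines had 2 µg/mL doxycycline for 24 h and then 100 nM dTAGV-1 for 12 h. No group had doxycycline alone, so both agents cannot be told apart in those 6 lines, and no treated Mock group was analysed here. Whether a line was 1 clone, and whether the 2 libraries of a group came from separate cultures, is not stated, so p-values measure only the spread between these libraries.

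The libraries held 10866089 to 17912802 counts each. POLR2A, the targeted gene, had a higher mean in treated than in untreated cells of all 7 lines, from 296 ± 8.86 to 769 ± 355 CPM (SD, n = 2) in WT for example, but a degron acts on the protein and these counts do not separate endogenous from complement RNA, so POLR2A does not check the labels. CPM here is the count divided by the library size in units of 1e+06, after scaling that size by the trimmed mean of M values (TMM). The level of 1 gene in different libraries is given in CPM, and levels of different genes are compared in TPM, the authors' share of transcripts, which also divides by length.

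The libraries fell into 2 kinds that the label A549 does not give. Of 6 genes known to be high in A549, all had a mean of at least 1 CPM in Mock, and their summed level was 21543 to 22042 CPM there, against 0.735 to 3.12 CPM in the 14 untreated libraries of the lines and 1.49 to 3.29 CPM in the 14 treated ones. The summed level of 11 lung epithelial genes was 10501 to 10998 CPM in Mock, 79.1 to 150.3 CPM in the untreated lines and 87.9 to 183 CPM in the treated lines. The surfactant genes SFTPB and SFTPC did not add to this contrast, with at most 0.102 and 0.0958 CPM in Mock. In the untreated lines SFTPB had at most 0.212 CPM and SFTPC was at 0. Most of the Mock sum was keratins, KRT8 with 5507 to 5810 CPM, KRT18 with 2898 to 2903 CPM and KRT7. KRT7, a keratin of simple epithelia, had 1854 and 2026 CPM in Mock and at most 0.160 CPM in the lines. NKX2-1, a lung lineage factor of the same list, ran against the sum, with 0 and 0.307 CPM in Mock and 1.20 to 10.6 CPM in the untreated lines. The summed level of 7 genes of HEK293, an embryonic kidney line, or of neurons was 67.0 to 76.1 CPM in Mock, 959 to 1823 CPM in the untreated lines and 170 to 1128 CPM in the treated lines. Most of this sum was IRS4, an insulin receptor substrate, with 739 to 1464 CPM in the untreated lines, while INA and PAX8 ran against it, with 52.96 to 58.1 and 1.72 to 3.18 CPM in Mock and at most 8.13 and 0.133 CPM in the untreated lines. The summed levels of 4 immune, 4 fibroblast and 4 endothelial markers stayed at or below 53.3 CPM in all 30 libraries. The data thus go against the label A549 in the 28 libraries of the lines, and which cells they were was not tested. The changes with treatment below are each within 1 line, and fits without Mock are given where they differ.

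CDKN2A (ENSG00000147889, GRCh38 chr9:21967753-21995301, minus strand) had 0 counts in both Mock libraries. In the 14 untreated libraries of the lines its lowest, median and highest levels were 89.2, 115 and 156 CPM, from 1037 to 2450 counts. The lowest line library was thus far above both Mock libraries, with nothing between. Against a floor of 3 counts over both Mock libraries, 0.149 CPM, the mean of an untreated line was at least 731-fold higher in Y1F and at least 885-fold higher in S7A, the extremes of the 7 lines. Per length, CDKN2A was the highest of the 5 genes in the untreated lines, with a mean of 128 TPM, above 93.0% of the genes tested.

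CDKN2B (ENSG00000147883, chr9:22002903-22009363, minus strand), 7.60 kb from CDKN2A on the centromere side, also had 0 counts in both Mock libraries. Its lowest, median and highest levels in the untreated lines were 8.68, 12.6 and 20.96 CPM, at least 62.5-fold above the same floor in Y1F and at least 134-fold in T4V. Its mean of 13.8 TPM in the untreated lines lay above 56.9% of the genes tested. CDKN2A and CDKN2B are paralogs of similar sequence, and the sources used here do not say how reads that fit both were counted. The gene count of CDKN2A also adds up the p16INK4a and p14ARF transcripts, which begin at separate starts, that of p14ARF nearer CDKN2B. The 250 bases before each RefSeq start (GRCh38.p14, printed 5′ to 3′ on the minus strand of chr9) are shown because the CDKN2A counts pool the first pair, while the CDKN2B window belongs to the only one of these inhibitors that was called. Capitals mark GGGCGG on either strand.

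CDKN2A, p14ARF start, chr9:21995325-21995574: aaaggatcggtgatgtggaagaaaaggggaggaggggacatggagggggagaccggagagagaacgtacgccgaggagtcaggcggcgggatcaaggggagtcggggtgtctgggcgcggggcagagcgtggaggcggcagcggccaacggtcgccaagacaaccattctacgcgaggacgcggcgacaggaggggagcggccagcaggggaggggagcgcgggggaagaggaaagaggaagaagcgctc
CDKN2A, p16INK4a start, chr9:21974858-21975107: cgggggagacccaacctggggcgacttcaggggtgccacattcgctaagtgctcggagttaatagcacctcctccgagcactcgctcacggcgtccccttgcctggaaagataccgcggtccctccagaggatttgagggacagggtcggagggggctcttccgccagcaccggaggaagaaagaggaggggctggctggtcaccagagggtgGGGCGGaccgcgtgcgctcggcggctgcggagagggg
CDKN2B, chr9:22009306-22009555: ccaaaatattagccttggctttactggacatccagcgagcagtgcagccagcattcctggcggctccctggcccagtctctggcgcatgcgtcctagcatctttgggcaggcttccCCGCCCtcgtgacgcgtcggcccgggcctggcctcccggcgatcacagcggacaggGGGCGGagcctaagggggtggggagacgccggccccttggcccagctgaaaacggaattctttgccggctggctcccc

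The CDKN2B window held 2 matches to GGGCGG, the p16INK4a window 1 and the p14ARF window 0. Of all 35116 RefSeq windows of this length, 42.6% held GGGCGG. The other motifs, searched on both strands as well, matched none of these 3 windows: the CCAAT box (CCAAT), which 32.0% of all windows held, the TATA box (TATAAA, 10.7%), the E2F sites TTTCGCGC (0.439%) and TTTGGCGC (0.550%) and the E box CACGTG (6.34%). No matches overlapped in these windows. A match is a string of letters, not evidence that a factor binds there.

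MTAP (ENSG00000099810, chr9:21802543-21937651, plus strand) ends 30.1 kb before CDKN2A. It had 4 and 5 counts in Mock, 0.410 and 0.479 CPM, against a lowest, median and highest level of 36.6, 43.3 and 51.4 CPM in the untreated lines. The mean of an untreated line was 88.2-fold (S2A) to 105-fold (Y1F) that of Mock. The 9 Mock counts give an exact Poisson interval of 0.204 to 0.846 CPM at 95% confidence, which covers counting error only. Unlike CDKN2A and CDKN2B, MTAP was thus not at 0 in Mock, and whether its 9 counts came from the gene was not tested. The MTAP window held 2 matches to GGGCGG, 1 to CCAAT and 1 to TATAAA.

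KLHL9 (ENSG00000198642, chr9:21329671-21335380, minus strand), 467 kb on the telomere side of MTAP, encodes a substrate adaptor of a CUL3 ubiquitin ligase that acts on the mitotic kinase Aurora B. Its levels were 85.4 and 75.8 CPM in Mock, and 41.0, 49.999 and 59.7 CPM at the lowest, median and highest untreated line library, so Mock lay above all 14. The Mock level was 1.49 times the mean of the highest line, S7A, and 1.81 times that of the lowest, Degron. MLLT3 (ENSG00000171843, chr9:20341665-20622543, minus strand), a further 707 kb out, encodes AF9, a YEATS-domain reader of acylated histones found in the super elongation complex and with DOT1L. It had 50.5 and 45.8 CPM in Mock, and 13.7, 19.1 and 22.5 CPM at the lowest, median and highest untreated line library. Both flanking genes were thus present in all 30 libraries and, in CPM, highest in Mock. In TPM MLLT3 was highest in Mock too, with 19.5 and 17.8 there and at most 11.8 in an untreated line library. For KLHL9 the libraries overlapped in TPM, with 46.4 and 41.6 in Mock and 44.2 in untreated T4V library 2.

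**Figure D1:**
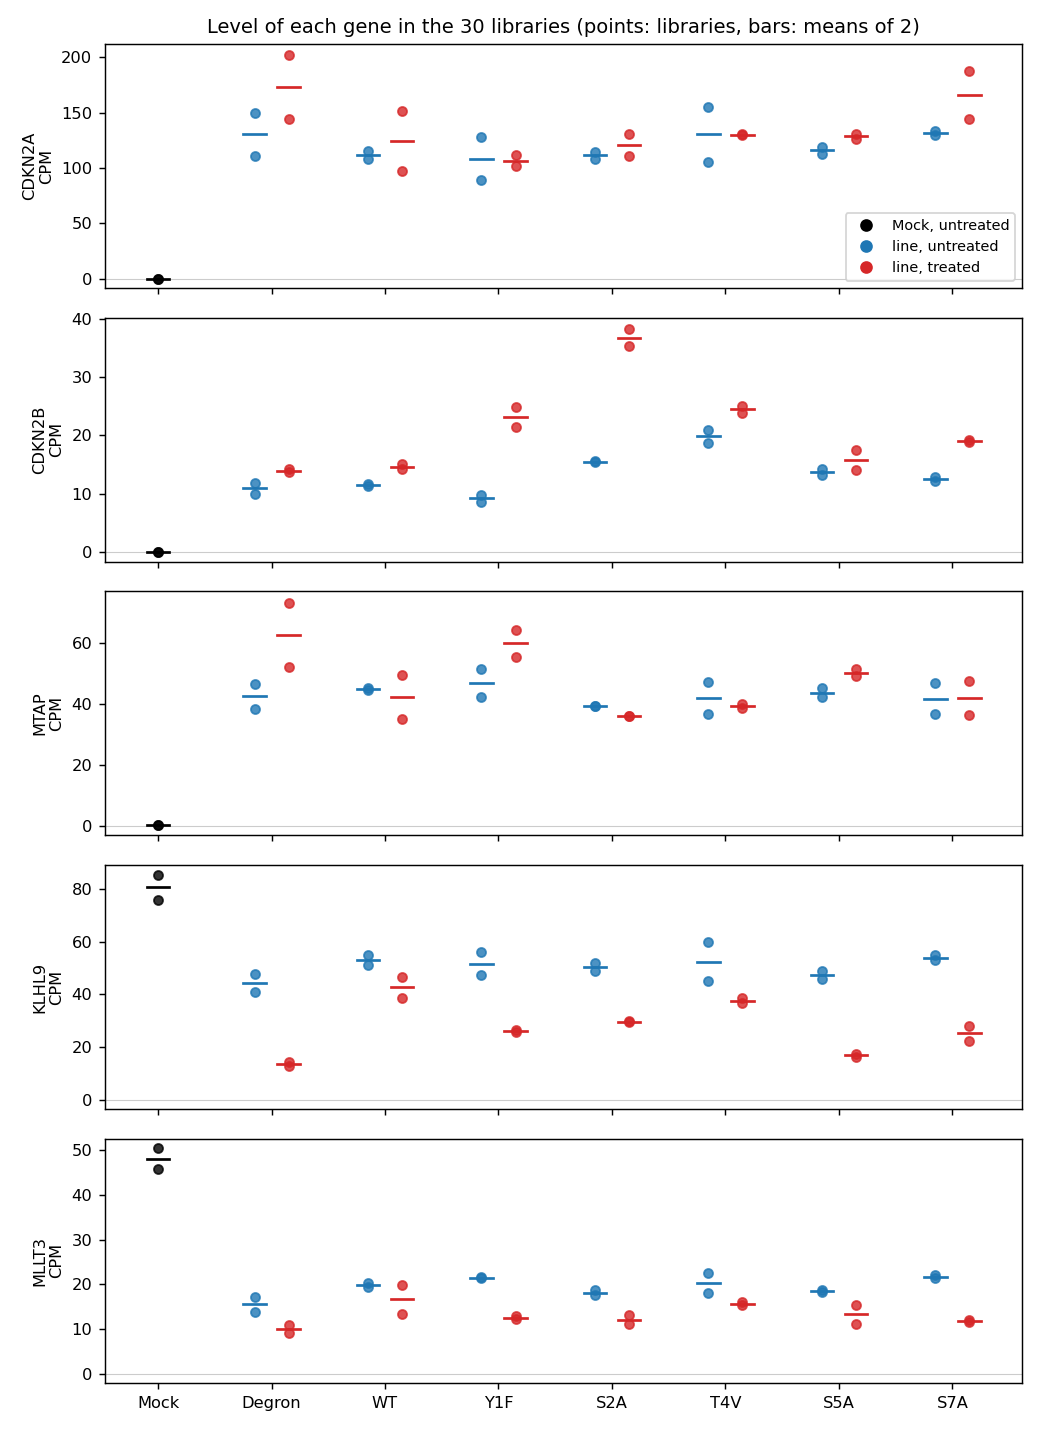
Level of each gene (CPM, linear axis from 0) in the 30 libraries, with 1 point per library and a bar at the mean of 2. CDKN2A, CDKN2B and MTAP sit at or near 0 in Mock alone, KLHL9 and MLLT3 are highest in Mock, and KLHL9 is lower in treated (red) than in untreated (blue) libraries of each line.

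A list of 41 genes, the 5 among them, runs from ADAMTSL1 to MOB3B (chr9:17906563-27529781) and so reaches beyond 9p21. Of these, 4 were under 1 CPM in Mock and at least 1 CPM in all 14 untreated libraries of the lines. They were MTAP, CDKN2A, CDKN2B and ELAVL2, which encodes a neuronal RNA-binding protein. The first 3 lie within a stretch of 207 kb from the start of MTAP to the far end of CDKN2B, while ELAVL2 lies beyond DMRTA1. DMRTA1, IFNE and HACD4 were at least 1 CPM in Mock and under 1 CPM in all 14. A further 15 genes were at least 1 CPM in all 16 libraries, 17 were under 1 CPM in all 16 and 2, MIR31HG and ADAMTSL1, fitted none of these. The threshold of 1 CPM was chosen after the levels had been seen. The share of all genes in each class was not counted, and MTAP, CDKN2A and CDKN2B had been picked for this difference. These counts thus do not set the stretch apart from other regions. MIR31HG, a long noncoding RNA and the nearest of the listed genes before MTAP on the telomere side, had 13.02 and 17.3 CPM in Mock and 0 to 1.03 CPM in the untreated lines. CDKN2B-AS1 (ANRIL), a noncoding RNA on the plus strand that overlaps the p14ARF end of CDKN2A and all of CDKN2B, was present in Mock with 48 and 52 counts, 4.92 and 4.98 CPM, against 2.33 to 3.88 CPM in the untreated lines. It spans chr9:21994778-22121097 and so runs on well past CDKN2B, and where in it the Mock reads lie was not tested. Whether reads were counted by strand is not given in the sources used here, so a read in the overlap could belong to either gene.

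**Figure D2:**
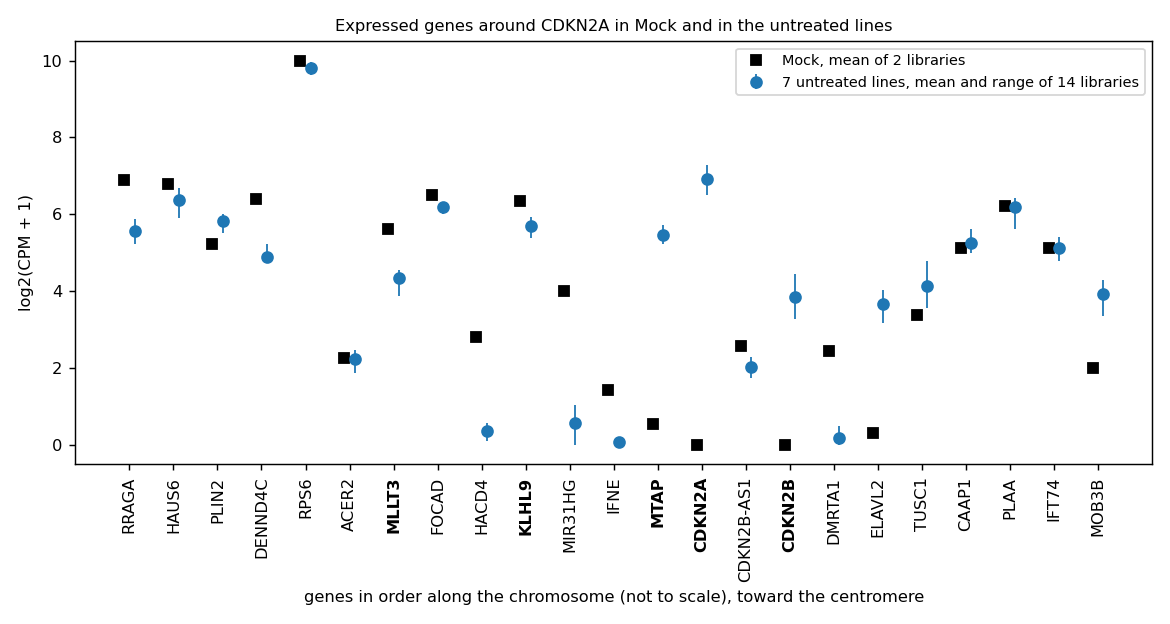
log2(CPM + 1) of the listed genes around CDKN2A that averaged 1 CPM or more in Mock or in the untreated lines, in order along the chromosome (the 5 genes in bold). Squares are the Mock mean, circles and bars the mean and range of 14 untreated line libraries, and Mock is at or near 0 at MTAP, CDKN2A, CDKN2B and ELAVL2.

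Ordered by group mean, CDKN2A ran from 173 ± 40.5 CPM in treated Degron (SD, n = 2) through 166 ± 30.3 in treated S7A to 107 ± 7.27 in treated Y1F and then Mock. In 12 of its 14 pairs of neighbouring groups the libraries overlapped. The exceptions were treated against untreated S7A and treated Y1F against Mock, so among the lines CDKN2A hardly separated the groups. MTAP ran from 62.6 ± 14.8 CPM in treated Degron to 36.0 ± 0.0641 in treated S2A and then Mock, with overlap in 11 of 14 pairs. CDKN2B was spread more widely. It ran from 36.7 ± 2.13 CPM in treated S2A, 24.5 ± 0.815 in treated T4V and 23.1 ± 2.48 in treated Y1F to 9.28 ± 0.845 in untreated Y1F, and only 5 of its 14 pairs overlapped. Among untreated lines T4V had the most CDKN2B, 20.96 and 18.8 CPM, above the other 12 untreated line libraries. KLHL9 ran from Mock to 13.6 ± 1.02 CPM in treated Degron, below 16.9 ± 0.843 in treated S5A, with overlap in 7 of 14 pairs. MLLT3 ran from Mock to 9.99 ± 1.29 CPM in treated Degron, with overlap in 11 of 14 pairs. Treated and untreated groups were mixed in the order of CDKN2A and MTAP. In that of KLHL9 all 7 untreated lines stood above all 7 treated ones. Overlaps were not counted over all genes, so the counts of pairs describe the 5 genes only.

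Changes with treatment were tested with edgeR's quasi-likelihood test and Benjamini-Hochberg adjustment over 19982 genes in each line, and a gene was called at an adjusted p under 0.05. Treatment moved much of the transcriptome: 49.7% of the genes tested were called in S5A, 44.4% in Degron, 44.0% in Y1F, 35.1% in S2A, 34.9% in S7A, 28.9% in T4V and 4.93% in WT, or 34.6% over the 7 lines together. Of the 5 genes, 4 were called in Degron, 3 each in Y1F, S2A and S7A, 2 in S5A, 1 in T4V and 0 in WT, 16 of 35 in all. DESeq2's Wald test called 14 of the 35. In WT 2 of the 5 had a raw p under 0.05, CDKN2B and KLHL9, and DESeq2's Wald test also called 0. The TMM scale takes most genes as unchanged, so the values are relative to other genes and not amounts per cell. In bulk RNA, fewer cells with a transcript and less of it per cell cannot be told apart. Whether untreated and treated libraries of a line overlap is given below as a description, with no share of all genes counted.

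CDKN2A passed edgeR's test in 0 of 7 lines, with a raw p under 0.05 in 0 and 0 calls by DESeq2's Wald test. Its log2 fold change, treated over untreated, ran from -0.03 ± 0.22 (SE) in Y1F to 0.41 ± 0.21 in Degron. In Degron its libraries had 150.0 and 111 CPM untreated and 145 and 202 CPM treated, which overlap. In S7A they had 133 and 129.7 CPM untreated and 145 and 187 CPM treated, which do not. The 95% interval of the change was -0.01 to 0.83 in Degron (adjusted p = 0.13) and -0.08 to 0.76 in S7A (adjusted p = 0.24), so a rise as large as the upper bounds lies within the error. All 95% intervals of changes and differences here use a normal approximation from the SE and are somewhat narrower than the test implies. Fitting each line with its own 4 libraries called CDKN2A higher in S2A and S5A, with changes of 0.18 in both, and the fit with no low-count filter called it higher in Degron, at 0.37.

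CDKN2B rose with treatment in 4 lines: Y1F, S2A, S7A and Degron. In Y1F the untreated libraries had 9.88 and 8.68 CPM and the treated ones 24.9 and 21.4 CPM. In S2A they had 15.5 and 15.6 CPM untreated and 35.2 and 38.2 CPM treated. In both lines every treated library lay far above every untreated one. The log2 fold change was 1.32 ± 0.13 in Y1F (2.50-fold, adjusted p = 1.3e-07) and 1.242 ± 0.12 in S2A (2.36-fold, adjusted p = 2.4e-07). S7A went from 12.98 and 12.3 CPM to 18.9 and 19.2 CPM, a change of 0.59 ± 0.13 (adjusted p = 0.0012). Degron went from 11.9 and 9.93 CPM to 13.8 and 14.2 CPM, a change of 0.35 ± 0.13 (adjusted p = 0.033). Untreated and treated libraries did not overlap in these 4 lines, nor in WT and T4V, where CDKN2B was not called. The call in Degron was lost without untreated library 2, without either treated library, and without Mock (0.30), and by DESeq2's Wald test (0.34). In WT, T4V and S5A the changes were 0.35 ± 0.13, 0.30 ± 0.12 and 0.20 ± 0.13 and were not called, with 95% intervals of 0.09 to 0.60, 0.06 to 0.54 and -0.05 to 0.45. CDKN2B-AS1, on the other strand of the same stretch, was called in 0 lines on the TMM scale, but lower in 3 and in 5 lines under the 2 other scalings described below. Over the 7 lines together, 17.7% of the genes tested were called higher, against 4 of 7 lines for CDKN2B.

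MTAP rose in Degron alone among the calls, from 38.4 and 46.4 CPM to 73.1 and 52.1 CPM, with 1 treated library well above the other. The change was 0.56 ± 0.18 (1.48-fold, adjusted p = 0.013). The call was lost without untreated library 1 (0.42) and without treated library 1 (0.22), the one at 73.1 CPM. In the other 6 lines the change lay between -0.13 ± 0.18 in S2A and 0.36 ± 0.18 in Y1F. In Y1F the levels were 42.0 and 51.4 CPM untreated and 64.1 and 55.2 CPM treated, with no overlap and an adjusted p of 0.11. MTAP and its neighbours CDKN2A and CDKN2B thus had unlike calls: in S2A, for example, CDKN2B rose while MTAP had 39.3 and 39.3 CPM before and 36.0 and 36.0 CPM after treatment.

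KLHL9 fell in 6 of 7 lines. Its untreated and treated libraries did not overlap in any of the 7, a count that was not set against all genes. In Degron it went from 41.0 and 47.8 CPM to 14.3 and 12.9 CPM. In S5A it went from 48.9 and 45.7 CPM to 16.3 and 17.5 CPM. These were the lowest levels of KLHL9 in the 30 libraries. The changes were -1.70 ± 0.15 in Degron (3.26-fold lower, adjusted p = 8.1e-09) and -1.49 ± 0.14 in S5A (2.80-fold lower, adjusted p = 4.3e-08). KLHL9 also fell by 1.10 ± 0.14 in S7A (adjusted p = 4.8e-06), by 0.98 ± 0.14 in Y1F (adjusted p = 9.4e-06), by 0.77 ± 0.14 in S2A (adjusted p = 2.2e-04) and by 0.48 ± 0.14 in T4V (adjusted p = 0.012). The T4V call was lost without untreated library 2 (-0.27), without treated library 1 (-0.49) and when T4V was fitted with its own 4 libraries. WT went from 51.0 and 55.1 CPM to 46.7 and 38.7 CPM, a change of -0.31 ± 0.14 that was not called (adjusted p = 0.21), with a 95% interval of -0.58 to -0.05. With libraries scaled on mitochondrial mRNAs the WT change was -0.54 and was called. Over the 7 lines together, 16.8% of the genes tested were called lower.

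The 250 bases before the RefSeq start of KLHL9, minus strand, are shown because KLHL9 had the largest fall of the 5 genes. None of the 6 motifs matched, so there are no capitals.

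KLHL9, chr9:21335405-21335654: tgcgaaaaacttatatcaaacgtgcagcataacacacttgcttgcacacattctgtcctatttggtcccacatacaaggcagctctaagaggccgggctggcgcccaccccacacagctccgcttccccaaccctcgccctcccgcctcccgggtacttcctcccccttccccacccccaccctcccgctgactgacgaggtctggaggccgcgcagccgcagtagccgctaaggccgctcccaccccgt

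The MLLT3 window held 3 matches to GGGCGG, 2 of which overlapped, and 1 to CCAAT. MLLT3 fell with treatment in 5 of 7 lines. In S7A it went from 21.3 and 22.1 CPM to 12.0 and 11.6 CPM, and in Y1F from 21.6 and 21.4 CPM to 12.1 and 12.8 CPM. In both lines every treated library was below every untreated one. The changes were -0.88 ± 0.17 in S7A (1.84-fold lower, adjusted p = 4.7e-04) and -0.79 ± 0.17 in Y1F (1.73-fold lower, adjusted p = 8.4e-04). MLLT3 also fell by 0.63 ± 0.17 in Degron (adjusted p = 0.0059), by 0.59 ± 0.17 in S2A (adjusted p = 0.012) and by 0.48 ± 0.17 in S5A (adjusted p = 0.025). Each of these 3 calls rested on single libraries. The Degron call was lost without untreated library 2 (-0.47) or treated library 2 (-0.54), and the S2A call without untreated library 2 (-0.58) or treated library 1 (-0.50). The S5A call was lost without untreated library 1 (-0.51), untreated library 2 (-0.54) or treated library 2 (-0.33), and by DESeq2's Wald test. In T4V and WT the changes were -0.37 ± 0.17 and -0.26 ± 0.17 and were not called, and T4V was called without untreated library 1 (-0.60).

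**Figure D3:**
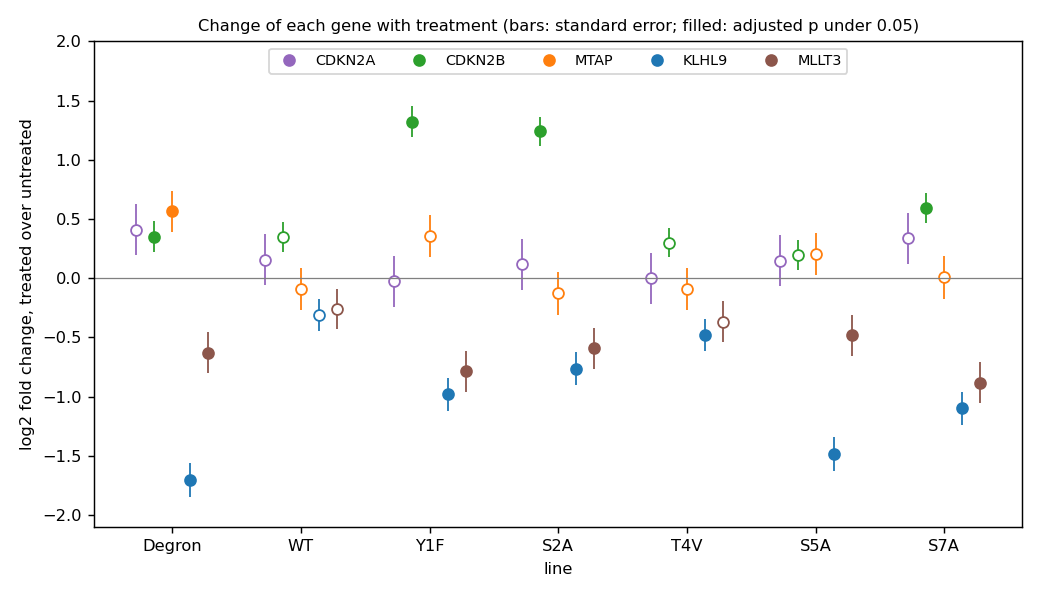
log2 fold change, treated over untreated, of the 5 genes in each of the 7 lines on the TMM scale, with bars of 1 standard error and filled points for calls at an adjusted p under 0.05. CDKN2B is highest in Y1F (1.32) and S2A (1.242), KLHL9 lowest in Degron (-1.70) and S5A (-1.49), and all 5 points of WT are open.

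Whether a line's change differed from that of WT, the line complemented with unchanged RPB1, was tested as a difference of changes in the same fit. The 6 differences share the 4 WT libraries and so are not independent of each other. Over all genes 18.1% differed in S5A, 12.0% in Degron, 9.73% in Y1F, 7.53% in S2A, 3.70% in T4V and 0.821% in S7A, or 8.65% together. Of the 30 differences of the 5 genes 5 were called, 3 in KLHL9 and 2 in CDKN2B. KLHL9 fell by 1.39 ± 0.20 more than in WT in Degron (adjusted p = 7.1e-05), by 1.17 ± 0.20 more in S5A (adjusted p = 3.3e-04) and by 0.67 ± 0.19 more in Y1F (adjusted p = 0.034). CDKN2B rose by 0.97 ± 0.18 more than in WT in Y1F (adjusted p = 0.0020) and by 0.90 ± 0.18 more in S2A (adjusted p = 0.0039). With the authors' factors, described below, neither CDKN2B difference was called, at 0.35 (adjusted p = 0.39) and 0.62 (adjusted p = 0.19). Scaled on mitochondrial mRNAs they were 0.84 (adjusted p = 0.034) and 0.62 (adjusted p = 0.088), so that only Y1F was called. The KLHL9 difference in Y1F did not pass the test without WT untreated library 1 or 2, WT treated library 1, Y1F untreated library 2 or Y1F treated library 1 or 2, where it ran from -0.74 to -0.54, and the other 4 calls remained in each leave-out fit on the TMM scale. The KLHL9 difference in S7A, -0.78 ± 0.19, was just outside the threshold (adjusted p = 0.057) and passed without WT treated library 2 (-0.92). CDKN2B in S5A changed by -0.15 ± 0.18 relative to WT, with a 95% interval of -0.51 to 0.21. No difference for CDKN2A was called, and the intervals were wide, -0.34 to 0.85 in Degron for example. The MTAP difference in Degron, 0.66 ± 0.25, was not called (adjusted p = 0.096), but passed without Degron treated library 2 (0.87) or WT treated library 1 (0.91).

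The direction of a change depended on how libraries were scaled for 3 of the 5 genes. The other scalings were 2: one on the summed counts of the 13 mitochondrially encoded mRNAs, made by a separate polymerase, and one on factors implied by the authors' deposited table, whose mean count per gene fixes them. Cells of the fly line S2 were added to each sample as a spike-in, but 0 fly genes were listed in the files used here, and whether the authors' factors come from it is not given in the sources used here. On the TMM scale the median change of all genes lay between -0.01 and 0.05 in the 7 lines. On the mitochondrial scale it was -0.70 in S5A and -0.17 in WT, its extremes, and with the authors' factors -0.92 in S5A and -0.19 in WT. Both thus lowered the typical gene, which puts a rise on the TMM scale at risk but hardly a fall. In Degron the calls over all genes went from 4609 higher and 4272 lower to 1942 higher and 8499 lower on the mitochondrial scale and to 1384 higher and 12159 lower with the authors' factors. The TMM values of the 5 genes therefore stand relative to the typical gene, and the others relative to these references.

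KLHL9 was lower in every line under all 3 scalings, called in 6 lines on the TMM scale, 7 on the mitochondrial scale and 6 with the authors' factors. MLLT3 was likewise lower throughout, called in 5, 6 and 6 lines. As both references lowered the typical gene, they hardly test the falls of KLHL9 and MLLT3. CDKN2B stayed higher in S2A, at 1.242 on the TMM scale and 0.73 with the authors' factors (adjusted p = 0.0032). In Y1F it was 0.45 with the authors' factors, no longer called (adjusted p = 0.060). In Degron, T4V and S5A CDKN2B turned negative with both references, at -0.50, -0.15 and -0.76 with the authors' factors, the T4V value not called. CDKN2A was called lower in 2 lines on the mitochondrial scale and in 3 with the authors' factors. MTAP was called lower in 3 and in 5 lines, and its rise in Degron became 0.08 and -0.29. In the authors' deposited table of DESeq2 results, at an adjusted p under 0.05, KLHL9 and MLLT3 are lower in 6 of 7 lines, CDKN2A and MTAP lower in 4, and CDKN2B is higher in S2A and lower in S5A.

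**Figure D4:**
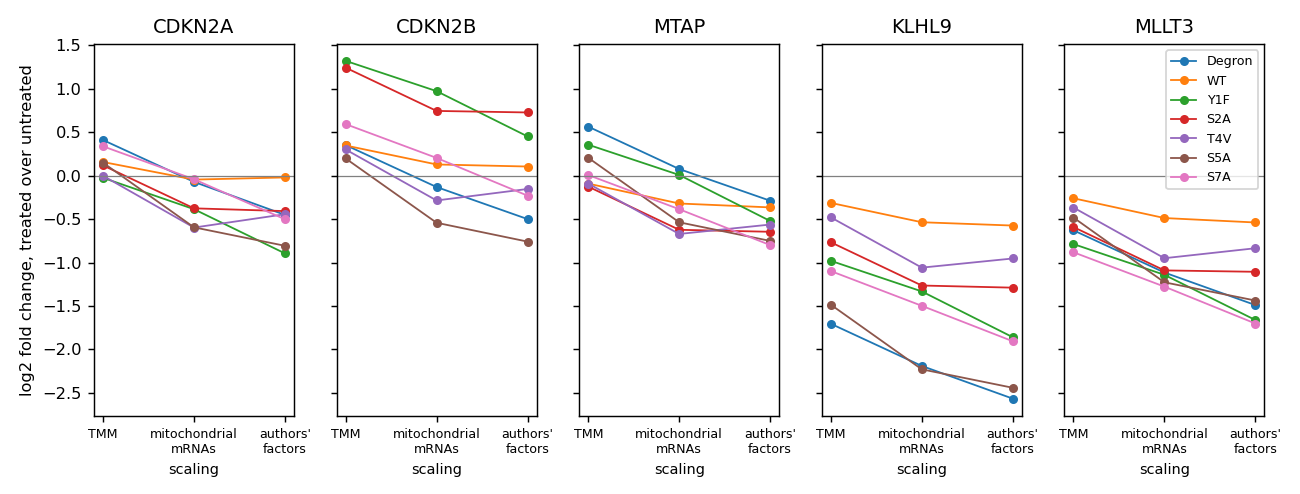
log2 fold change, treated over untreated, of each gene in the 7 lines under 3 scalings of the libraries. KLHL9 and MLLT3 lie below 0 under each, while CDKN2A, CDKN2B and MTAP cross 0 in several lines.

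Genes of the pathways were taken from lists, given here by counts on the TMM scale beside the median of all genes. The lists hold the 5 genes too, so their counts repeat calls given above. CDKN2A and CDKN2B are among the inhibitors, and CDKN2B is one of those called higher in Y1F, S2A and S7A. MTAP, KLHL9 and MLLT3 are each in the list of their own pathway, and all 5 are among the neighbours. Of 7 inhibitors of cyclin-dependent kinases 4 were called higher in Y1F, with a median change of 0.86 against 0.03 over all genes, and 3 each in S2A and S7A, with medians of 0.26 and 0.45, where 44.0%, 35.1% and 34.9% of all genes were called in either direction. With the authors' factors these 3 medians were -0.01, -0.26 and -0.39, so the direction of the list turned with the scaling. In the other lines, on the TMM scale, 1 was called higher and 2 lower in Degron and 2 higher and 1 lower in S5A. In T4V 1 was called higher and 0 lower, and in WT 0 were called. Over the 7 lines together 17.7% of all genes were called higher and 16.8% lower. CDKN2D (p19INK4d), another INK4 gene, rose in 4 lines, by 1.42 ± 0.22 in S2A at most (adjusted p = 4.0e-05), and was still called higher in 2 lines under each other scaling. CDKN1C (p57KIP2) rose in 3 lines, by 1.37 ± 0.24 in Y1F at most, but with the authors' factors it was called higher in 0 and lower in 2. Among 16 G1 kinases, cyclins, RB and E2F genes, 3 were called higher and 8 lower in S5A, where 49.7% of all genes were called, with a median of -0.30 against 0.02 over all genes. On the mitochondrial scale 0 were higher and 13 lower there, and with the authors' factors 0 and 14. Both scalings lowered the median of all genes in S5A, as given above, and the share of all genes called under them is not given here. CDK6, a target of p15 and p16, fell in 6 lines on the TMM scale, by 0.98 ± 0.21 in S5A at most. RBL1 (p107) fell in 5 lines, by 1.01 ± 0.20 in S2A at most, and CCNE2, a cyclin E, rose in 5, by 1.05 ± 0.20 in Y1F at most, but was called higher in 1 line on the mitochondrial scale and in 0 with the authors' factors. CDK6 and RBL1 were called lower in at least 6 lines under both other scalings, which lower the typical gene and so hardly test a fall.

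Of the genes listed with p14ARF, its target MDM2 and the MDM2 relative MDM4 fell in 5 lines each. MDM2 had its largest fall in S2A, -1.07 ± 0.22, and MDM4 in Degron, -1.14 ± 0.17. Of 13 Polycomb and other regulators known to act on the INK4-ARF locus, 8 fell and 0 rose in Degron, where 44.4% of all genes were called, with a median of -0.49 against 0.05 over all genes. In S2A, where 35.1% of all genes were called, 4 rose and 4 fell on the TMM scale, but 0 rose and 7 fell on the mitochondrial scale and 0 rose and 8 fell with the authors' factors. In Degron 12 fell and 0 rose under both, where most calls over all genes were lower too. For S2A the share of all genes called under these scalings is not given here. RING1 and EED, of Polycomb complexes 1 and 2, fell in 5 and 4 lines, by 1.26 ± 0.26 in T4V and 0.88 ± 0.12 in Degron at most. BMI1, a repressor of CDKN2A in many cells, fell in 4 lines, by 0.82 ± 0.22 in Y1F at most. Other genes of this list did not go the same way on the TMM scale. EZH2 was called higher in 3 lines and lower in 0, TBX3 higher in 3 and lower in 1, and CBX8 and SUZ12 in 0.

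Of 13 genes of methionine salvage and polyamine synthesis, 7 fell and 1 rose in S5A, where 49.7% of all genes were called, with a median of -0.27 against 0.02 over all genes. Under both other scalings all 13 fell there, with the median of all genes lowered as well. In Degron, on the TMM scale, 4 rose and 2 fell, with a median of -0.006 against 0.05 over all genes. In Y1F 1 rose and 6 fell, in S2A, T4V and S7A 1 rose and 4 fell each, and in WT 0 rose and 2 fell. ADI1, of the same list, was called higher in 5 lines and lower in 0 on the TMM scale. MAT2A, which makes S-adenosylmethionine from methionine, fell in all 7 lines under each scaling, on the TMM scale by 1.54 ± 0.10 in Degron and by 0.48 ± 0.10 in WT, its extremes. With 1 library left out it was called in 6 or 7. MRI1, which acts right after MTAP in salvage, fell in 5 lines, by 0.72 ± 0.15 in S5A at most. WDR77, the partner of PRMT5, fell in 6 lines and rose in Degron by 0.24 ± 0.09, a rise found in 0 lines under the other scalings. In the list of 6 genes of the KLHL9 ligase, KLHL9 among them, 0 were called higher in any line under the 3 scalings. On the TMM scale 17.7% of all genes were called higher and 16.8% lower over the 7 lines together. The other 2 scalings lower the typical gene, so few rises could be called there. On the TMM scale 4 of the 6 fell in Y1F, 3 in Degron, 2 each in S2A, T4V, S5A and S7A and 0 in WT. AURKB, the substrate of this ligase, fell in 6 lines, by 1.60 ± 0.18 in S5A at most, and CUL3, its scaffold, in 2. Of 14 genes listed for AF9, MLLT3 itself among them, MLLT10 (AF10) fell in 6 lines, by 1.82 ± 0.13 in Degron at most. ELL, an elongation factor, rose in 6 lines by up to 0.95 ± 0.19 in S5A, but was called in 0 lines under either other scaling. Of 26 tested genes in the stretch around CDKN2A, the 5 among them, 8 rose and 7 fell in Degron on the TMM scale. There 44.4% of all genes were called, and in WT 0 of the 26 were called. In Degron 1 rose and 13 fell on the mitochondrial scale, and 1 and 16 with the authors' factors. Most calls over all genes were lower there too under both. ELAVL2 was called on the TMM scale in Degron only, at -0.62 ± 0.23, a call lost without either untreated Degron library or without treated library 2, and was called lower in 3 lines under each other scaling. The falls of MDM2, MDM4, RING1, EED, BMI1, MRI1, WDR77, AURKB, CUL3 and MLLT10 were called in at least as many lines under both other scalings as on the TMM scale. Those scalings lower the typical gene, so such calls could hardly be lost and this is no test of the falls. With 1 library left out, the number of lines called in 1 direction moved by at most 1 for each gene named from these lists, with exceptions. CCNE2 was called higher in 3 to 5, and the range is not given here for ADI1, EZH2, TBX3, CBX8 and SUZ12.

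As a description of which genes had a like pattern, log2(CPM + 1) was correlated over the 15 group means among genes of at least 5 CPM with a symbol. The points share the scaling and, in treated groups, the treatment. CDKN2A was most like DPYSL3 (Pearson r = 0.99), CDKN2B like CHD4 (r = 0.97), MTAP like ARG2 (r = 0.99) and KLHL9 like MAT2A (r = 0.98). For the 3 genes near 0 in Mock this likeness rested on Mock. CDKN2A correlated with MTAP at 0.98 and with CDKN2B at 0.91 over 15 groups, but at 0.18 and 0.06 over the 14 groups without Mock, chosen after the data had been seen. KLHL9 and MLLT3 correlated at 0.85 with Mock and 0.91 without it. Over the 14 groups the most like genes were PRKD3 for KLHL9 (r = 0.98), SHLD2 for MLLT3 (r = 0.97), UCHL1 for CDKN2A (r = 0.93), CHD2 for CDKN2B (r = 0.92) and LAMC1 for MTAP (r = 0.88).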

How the data were processed

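The 5 genes, the pathway and marker lists and the alternatives were chosen with earlier results of these data known. Poly(A) RNA from 30 libraries (15 groups of 2) was sequenced as 150-base read pairs, per the labels' protocols. The submitters' processing notes name Trim Galore 0.6.2, STAR 2.7.3a, featureCounts 2.0.1, DESeq2 1.24.0 and the builds hg38 and dm6. The sources used here do not give the annotation release, the use of strand or the handling of reads with several matches. The authors deposited raw counts and TPM per gene for each library, and for each line a table with a mean scaled count (a signal value), a p-value and a log2 fold change per gene. Gene coordinates came from GENCODE 29, also GRCh38, matched by identifier without its version for all 41 genes listed in the stretch around CDKN2A. Promoter windows came from RefSeq (GRCh38.p14).

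From the counts, edgeR 4.0.16 in R 4.3.3 fitted 1 coefficient per group over all 30 libraries (15 residual degrees of freedom) with TMM factors after filterByExpr (minimum count 10), and glmQLFTest tested treated against untreated cells in 7 lines and 6 differences from WT. A simulated data set with known changes was used to test the script. A zero was bounded at 3 counts. Size factors were recovered from the deposited mean counts. Replicates of a group differed by more than counting noise in every group (chi-square per degree of freedom of 1.26 to 24.7). Total counts of 10866089 to 17912802 per library set the precision. Named genes were the 5, in each list up to 3 called genes of at least 5 CPM with the largest median absolute change over the lines, the 3 genes most like each of the 5 in pattern, of which the first is printed, and POLR2A. Some genes that this rule names are not reported here. Other genes named for their level in the listed stretch of chromosome 9, CDKN2B-AS1, ADI1, EZH2, TBX3, CBX8, SUZ12 and the markers were chosen after values were seen. Alternatives were DESeq2's size factors and Wald test (1.42.0), scaling on mitochondrial mRNAs or the authors' factors, no low-count filter or a mean of at least 5 CPM, each line's own libraries, each library left out, a replicate block and, added after the data were seen, no Mock.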

Additional observations from a re-analysis of the deposited data

Results flagged for a closer look

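The change with treatment differed from that of the WT line by the test of the difference itself in 5 cases. For KLHL9 the log2 difference was -1.39 ± 0.20 (SE) in Degron (edgeR, adjusted p = 7.1e-05), -1.17 ± 0.20 in S5A (adjusted p = 3.3e-04) and -0.67 ± 0.19 in Y1F (adjusted p = 0.034). For CDKN2B it was 0.97 ± 0.18 in Y1F (adjusted p = 0.0020) and 0.90 ± 0.18 in S2A (adjusted p = 0.0039). All 5 share the 4 WT libraries. With the authors' factors the CDKN2B differences were 0.35 in Y1F and 0.62 in S2A and were not called.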

How the results depend on the processing

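With 1 library left out at a time, the number of lines called was 0 for CDKN2A, 3 to 4 for CDKN2B, 5 to 6 for KLHL9, 4 to 6 for MLLT3 and 0 to 1 for MTAP, and 4 to 7 of the 30 differences from WT were called. The counts moved most with the scaling: on mitochondrial mRNAs CDKN2A was called in 2 lines (both lower), MTAP in 3 (all lower) and 8 differences were called, and with the authors' factors these were 3 (all lower), 5 (all lower) and 11. CDKN2A was called in 1 line with no low-count filter and in 2 with each line's own libraries, all higher. MTAP was called in 2 lines when genes averaging under 5 CPM were dropped and in 3 with each line's own libraries, all higher. Values that changed sign with a call on at least 1 side were, on mitochondrial mRNAs, CDKN2B in Degron at -0.13 and CDKN2A, CDKN2B and MTAP in S5A at -0.59, -0.54 and -0.54. With the authors' factors they were CDKN2B and MTAP in Degron at -0.50 and -0.29, MTAP in Y1F at -0.52, CDKN2A, CDKN2B and MTAP in S5A at -0.81, -0.76 and -0.75, and the same genes in S7A at -0.50, -0.23 and -0.80. The cause was not tested. Sign changes of values not called on either side numbered 11 and 12 of 65 under these scalings. Of the 65 changes and differences of the 5 genes, the replicate block changed 0 calls. Number 1 and number 2 deviated together by a correlation between -0.53 (Degron) and 0.44 (S7A), so no deviation was shared alike over the lines. Whether libraries of the same number share a culture or a batch was not tested. Leaving out Mock changed 1 of 65 calls, CDKN2B in Degron. Depth limits CDKN2B most at the low end, with 101 to 485 counts in a line library, and in Mock it limits a count of 0 to the floor of 3 counts.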
